A study of Mus musculus with 10 samples.

Results

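The genes described here present antigen on MHC class II molecules: H2-Ab1, H2-Aa, H2-Eb1, H2-DMa, H2-DMb1, Cd74 and Ciita. They were chosen by name, and all 7 were found by symbol among the 16383 named genes of the array, each on 1 probe of 23438. Their RNA was compared in livers of 6 male Tgfbr2+/- mice and 4 wild-type (WT) littermates on a chow diet, to ask how liver RNA differs when a copy of Tgfbr2 is lost, which encodes the signalling type II receptor for TGF-beta. The titles write the genotype as Tgfbr-/+. Each library was hybridised on 2-colour arrays against a pool of liver RNA from 6 WT mice, so WT livers and pool share genotype and diet. The titles of the WT libraries state no sex. The mouse strain, age, the Tgfbr2 allele and the cells it is lost from are not given in the sources used here. Values are log2 ratios over the pool. Group values are mean ± SD, and differences are Tgfbr2+/- minus WT ± SE. Each library stands for 1 mouse, and the number of arrays limits the precision.

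An MHC class II molecule is a pair of an alpha and a beta chain that carries peptides from endosomes to the surface of a cell, where CD4 T cells read them. The invariant chain, encoded by Cd74, fills the peptide groove on the way. Proteases of the lysosome trim it, and H2-DM exchanges the remaining fragment for a peptide. In liver the class II genes are known mainly from Kupffer cells, the resident macrophages, and from dendritic and B cells, while hepatocytes carry little or none at rest. CIITA, the product of Ciita, is a coactivator that switches the family on, and interferon gamma is its best known inducer. TGF-beta is known to restrain class II expression in macrophages.

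CIITA is recruited by proteins bound to a composite promoter element, in which RFX and CREB-type factors read the X and X2 boxes and NF-Y reads the Y box. The 120 bases before the RefSeq start (GRCm38.p6) are shown for the members whose promoter holds 2 of these motifs in that window. The capitals mark every match, on either strand, to the Y box ATTGG, to the 3′ part of the X box, ACNGATG, and to the X2 box core TGACG, whose forward and reverse matches overlap in H2-Aa.
H2-Aa, chr17:34287824-34287943, minus strand: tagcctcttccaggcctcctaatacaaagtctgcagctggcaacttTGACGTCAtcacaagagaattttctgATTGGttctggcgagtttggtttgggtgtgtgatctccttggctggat
H2-Eb1, chr17:34305747-34305866, plus strand: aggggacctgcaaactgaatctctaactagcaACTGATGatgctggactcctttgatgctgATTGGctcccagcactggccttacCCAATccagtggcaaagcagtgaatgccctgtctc
H2-DMb1, chr17:34153071-34153190, plus strand: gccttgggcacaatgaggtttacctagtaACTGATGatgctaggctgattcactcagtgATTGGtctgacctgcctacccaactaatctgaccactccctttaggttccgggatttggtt

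RefSeq promoters were at hand for 4 of the 7 members and 4 of the 6 other class II chains listed. Over the 250 bases before the start, 33.8% of all 32851 promoters hold the Y box on either strand, 8.31% the X box part, 17.8% the X2 core and 2.77% both Y box and X box part. In H2-Eb1 the X box part begins 29 bases before the Y box, in H2-DMb1 30 bases before it, and in the related genes H2-Eb2, H2-DMb2 and H2-Oa 29, 30 and 94 bases. A spacing of 28 to 31 bases, a range set after these values were seen and which leaves out H2-Oa, occurs in 12 of the 32851 promoters (0.0365%), and 9 of the 12 belong to H2 genes, which have 35 promoters in the table. H2-DMa holds the Y box and no X box part, at positions -198 to -194 from a start. A match of letters is a description and does not show that a factor was bound.

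The targeted gene and the direction of the ratio bear on every sign below. On Tgfbr2 probe 10024401828 the Tgfbr2+/- libraries were at -0.82, -1.11, -1.04, 0.20, -0.86 and -0.60 for replicates 1 to 6, and the WT libraries at -0.29 to 0.64, so the library labelled Tgfbr2+/- replicate 4 lay within the WT range. Probe 10024408236 of the same gene gave a difference of -0.07 between the groups (p = 0.457 by exact permutation). The ratio is likely sample over pool, from the channel order in the titles and from this gene. Library correlations over all probes ran from -0.32 to 0.52. The lowest joined Tgfbr2+/- replicate 5 and WT replicate 1 on the same dye labels, so the direction of these columns is not settled. As deposited, WT replicate 1 correlated with the other WT libraries at 0.04 to 0.13. Tgfbr2+/- replicate 5 correlated with the others of its group at -0.02 to 0.15. On Tgfbr2 probe 10024401828, Tgfbr2+/- replicate 5 as deposited lay with most of its group (-0.86). WT replicate 1 was at 0.42 there, in a group with both signs, and this is 1 probe. The members' differences and many of the counts are therefore also given with the sign of either column turned. Where all libraries of a group lie on 1 side of the pool, turning 1 of them must widen that group. An overlap that then arises cannot show which direction is right.

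All 7 genes had higher mean ratios in Tgfbr2+/- liver, by 0.02 to 0.29, and none passed the test. By limma with Benjamini-Hochberg adjustment over all genes the members' adjusted p ranged from 0.857 to 0.988, and the whole table held 0 genes past 0.05 (0%), with 908 at an unadjusted p under 0.05. Over all genes 52.6% of differences were positive and the median difference was 0.0044, against a median of 0.08 over the 7. At an unadjusted p under 0.05, 1 member was higher and 0 lower, where 2.97% of all genes were higher and 2.57% lower. For 0 of the 7 did the Tgfbr2+/- libraries lie wholly above the WT ones, as they did for 0.726% of all genes. With WT replicate 1 turned in sign 6 of the 7 were positive (54.2% of all genes), and with Tgfbr2+/- replicate 5 turned 5 were (52% of all genes). In whole liver, a change in the number of cells of a type and a change in RNA per cell cannot be told apart.

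The 3 chains of the surface molecules showed the widest differences. H2-Ab1, the beta chain of I-A, was at 0.04, -0.08, -0.21, 0.05, 0.10 and 0.19 in Tgfbr2+/- replicates 1 to 6, and at -0.19, -0.14, -0.11 and -0.18 in WT replicates 1 to 4. The Tgfbr2+/- libraries lay above all WT libraries in 5 of 6 cases, and replicate 3 lay below them all. The means were 0.02 ± 0.14 in Tgfbr2+/- (SD, n = 6) and -0.16 ± 0.04 in WT (SD, n = 4), a difference of 0.17 ± 0.07 or 1.13-fold, with a 95% interval from 0.01 to 0.33 (exact permutation p = 0.0667, limma p = 0.0352, adjusted p = 0.857). The difference was 0.08 with WT replicate 1 turned and 0.14 with Tgfbr2+/- replicate 5 turned (exact permutation p = 0.462 and 0.1). Without Tgfbr2+/- replicate 3 it was 0.22 (limma adjusted p = 0.349), and without the library labelled Tgfbr2+/- replicate 4 it was 0.16, with an unadjusted p no longer under 0.05.

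H2-Aa, the alpha chain that pairs with it, was at 0.12, -0.02, -0.22, 0.26, 0.05 and 0.27 in Tgfbr2+/- replicates 1 to 6, against -0.13, -0.05, -0.05 and 0.02 in WT replicates 1 to 4. Replicate 6 and the library labelled replicate 4 were highest, and replicate 3 again lay below every WT library. The difference was 0.13 ± 0.09 with an interval from -0.07 to 0.32 (exact permutation p = 0.21, limma adjusted p = 0.92). It was 0.07 with WT replicate 1 turned and 0.11 with Tgfbr2+/- replicate 5 turned. H2-Eb1, the beta chain of I-E, had the largest spread of the family, at 0.05, -0.13, -0.40, 0.27, 0.21 and 0.47 in Tgfbr2+/- replicates 1 to 6, against -0.29, -0.16, -0.08 and -0.30 in WT replicates 1 to 4. Here 4 Tgfbr2+/- libraries lay above all WT libraries, replicate 2 lay among them and replicate 3 below. The difference was 0.29 ± 0.14, or 1.22-fold, with an interval from -0.03 to 0.60 (exact permutation p = 0.119, limma adjusted p = 0.917). It was 0.14 with WT replicate 1 turned and 0.21 with Tgfbr2+/- replicate 5 turned.

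The peptide-loading genes differed less. H2-DMa, the alpha chain of the H2-DM exchange factor, was at 0.07, 0.16, -0.03, 0.17, 0.14 and -0.04 in Tgfbr2+/- replicates 1 to 6, against -0.06, 0.06, -0.0047 and 0.0020 in WT replicates 1 to 4. Replicates 3 and 6 were the low ones, so the library highest for the surface chains was lowest here. The difference was 0.08 ± 0.06 with an interval from -0.04 to 0.20 (exact permutation p = 0.171), and it was 0.05 with WT replicate 1 turned and 0.03 with Tgfbr2+/- replicate 5 turned. H2-DMb1, a beta chain of the same factor, was at 0.04, -0.13, -0.12, 0.11, 0.18 and 0.0053 in Tgfbr2+/- replicates 1 to 6, against -0.07, -0.05, -0.05 and 0.15 in WT replicates 1 to 4. The groups overlapped throughout, and the difference was 0.02 ± 0.07 with an interval from -0.14 to 0.18 (exact permutation p = 0.805). WT replicate 4 stood apart from the other 3 WT libraries, and 8 of 19 alternative settings gave a negative difference.

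The invariant chain and the coactivator stayed close to the pool in every library. Cd74 was at 0.07, 0.11, 0.0080, 0.10, 0.10 and -0.02 in Tgfbr2+/- replicates 1 to 6, against -0.07, 0.09, 0.05 and -0.02 in WT replicates 1 to 4. The difference was 0.05 ± 0.05 with an interval from -0.05 to 0.15 (exact permutation p = 0.224), and it was 0.02 with either unsettled column turned. Ciita was at 0.07, 0.0086, 0.0086, 0.12, 0.16 and 0.01 in Tgfbr2+/- replicates 1 to 6, against -0.02, 0.06, -0.02 and 0.07 in WT replicates 1 to 4. Its difference was 0.04 ± 0.05 with an interval from -0.06 to 0.14 (exact permutation p = 0.333), and -0.01 with Tgfbr2+/- replicate 5 turned.

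**Figure D1:**
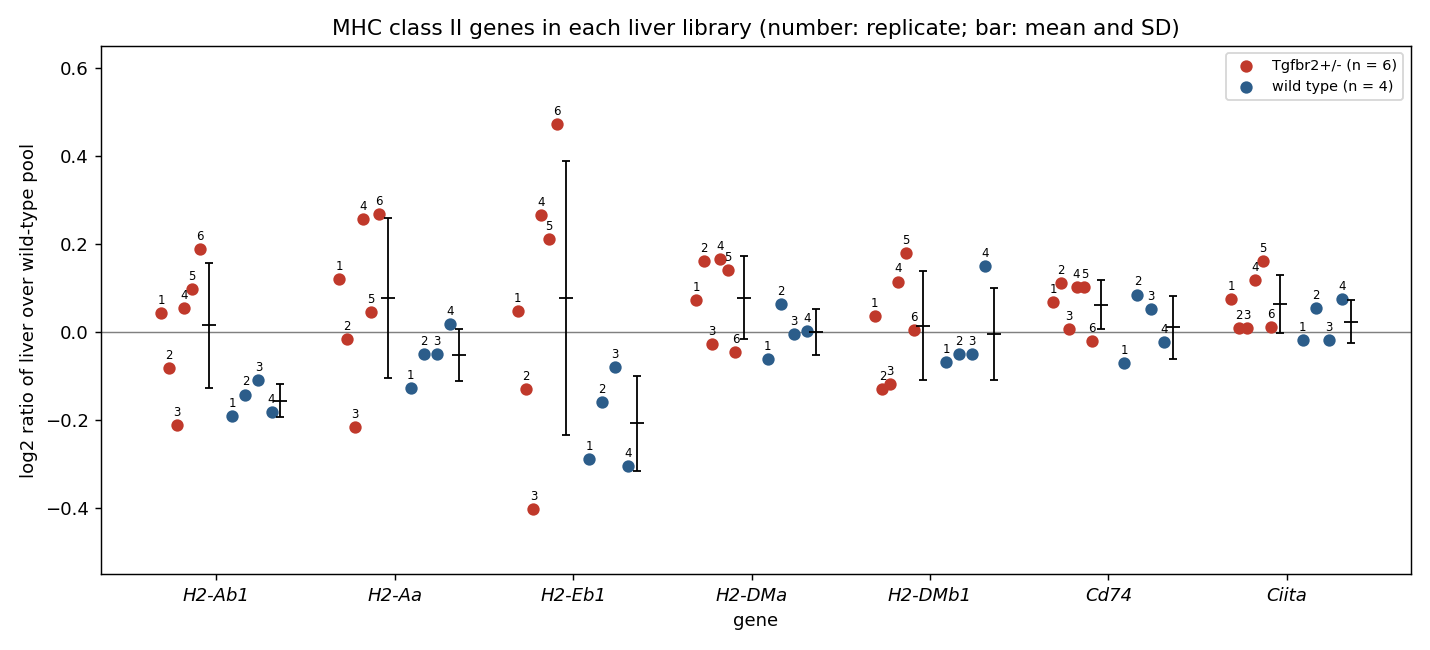
Log2 ratios over the wild-type pool of the 7 genes in each library, Tgfbr2+/- left (red) and WT right (blue) for each gene, numbered by replicate, with mean and SD as bars. H2-Eb1 spans -0.40 to 0.47 in Tgfbr2+/- livers and -0.30 to -0.08 in WT livers, while Cd74 spans -0.02 to 0.11 in Tgfbr2+/- and -0.07 to 0.09 in WT.

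As deposited, the surface chains had wider SDs among the heterozygous livers than among the WT livers. The SD of H2-Eb1 was 0.31 in Tgfbr2+/- and 0.11 in WT, that of H2-Aa 0.18 and 0.06, and that of H2-Ab1 0.14 and 0.04, ratios of 2.90, 3.06 and 3.73. Over all genes the median ratio of the SDs was 1.23, and 9.34% of genes had a ratio of at least 2.90. For Cd74 the ratio was 0.78. With WT replicate 1 turned the ratios were 1.23 for H2-Eb1, 2.17 for H2-Aa and 0.83 for H2-Ab1. The median over all genes was then 1.20. For H2-Ab1 and H2-Eb1 every WT library lay under the pool, so turning 1 of them must widen the WT SD. The ratios thus depend on the sign of that column, but they cannot show which sign is right. With Tgfbr2+/- replicate 5 turned they were 3.004, 3.18 and 3.73. The difference in spread between the groups was not tested. In all 3 surface chains replicate 3 was the lowest Tgfbr2+/- library, replicate 2 the next and replicate 6 the highest.

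Set against the pool, the surface chains H2-Ab1 and H2-Eb1 had means below it in WT liver and closer to it in Tgfbr2+/- liver, whereas H2-Aa was at 0.08 in Tgfbr2+/- and -0.05 in WT. H2-Ab1 and H2-Eb1 were under the pool in all 4 WT libraries, as were 5.81% of all genes, and in 3 of 4 with WT replicate 1 turned, where the WT means were -0.06 for each. The WT mean of H2-Ab1 was below the pool at an unadjusted p under 0.05, as for 2.01% of all genes, but its limma adjusted p was 1. The Tgfbr2+/- mean of H2-Ab1 was 0.02 (limma adjusted p = 0.886) and that of H2-Eb1 0.08 (limma adjusted p = 0.675). By adjusted p 0 of the 7 members passed in either group, against 0.0122% of all genes in Tgfbr2+/- and 0% in WT. H2-DMa had the smallest p in Tgfbr2+/-, at a mean of 0.08 (limma adjusted p = 0.27), where 11.1% of all genes were higher at an unadjusted p under 0.05. This test leaves out the spread of the pool's own mice and any dye bias.

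Of 21 pairs of members, 21 had a positive r over the 10 libraries, and 5 correlated past an adjusted p of 0.05. These 5 fall into 3 sets that share no gene. Whether pairs within the sets differ from the other pairs was not tested. The surface chains form the first set. H2-Ab1 and H2-Eb1 had r = 0.98 (rho = 0.96, permutation p = 3e-05 and 9e-05, adjusted p = 0.00063 and 0.00189), H2-Aa and H2-Eb1 had r = 0.89 (rho = 0.85, permutation p = 0.00046 and 0.00308, adjusted p = 0.0035 and 0.0162), and H2-Ab1 and H2-Aa had r = 0.87 (rho = 0.89, permutation p = 0.00096 and 0.00115, adjusted p = 0.00504 and 0.0112). The second set is H2-DMa with Cd74, at r = 0.91 (rho = 0.88, permutation p = 0.0005 and 0.0016, adjusted p = 0.0035 and 0.0112). The third is H2-DMb1 with Ciita, at r = 0.85 (rho = 0.79, permutation p = 0.00216 and 0.00817, adjusted p = 0.00907 and 0.0343).

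Without the 2 libraries farthest from the median of the first gene, r of these 5 pairs was 0.75 to 0.95, and with either unsettled column turned it was 0.78 to 0.97. With the group means taken out, so that only differences between livers of the same genotype count, r was 0.85 to 0.98, and 3 of the 5 pairs passed an adjusted permutation p of 0.05. The exceptions were H2-Ab1 with H2-Aa (adjusted p = 0.0866) and H2-Aa with H2-Eb1 (adjusted p = 0.0588). The other 16 pairs had r of 0.14 to 0.66 (adjusted permutation p from 0.135 to 0.702), and 0.20 to 0.89 without the 2 farthest libraries. The highest of these joined H2-DMa with Ciita (0.89) and H2-Ab1 with H2-DMa (0.75), across the sets. Among them, Cd74 and the surface chains it assembles with had r of 0.24 to 0.32, or 0.48 to 0.69 without the 2 farthest libraries. All libraries share the pool, and each gene rests on 1 probe.

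**Figure D2:**
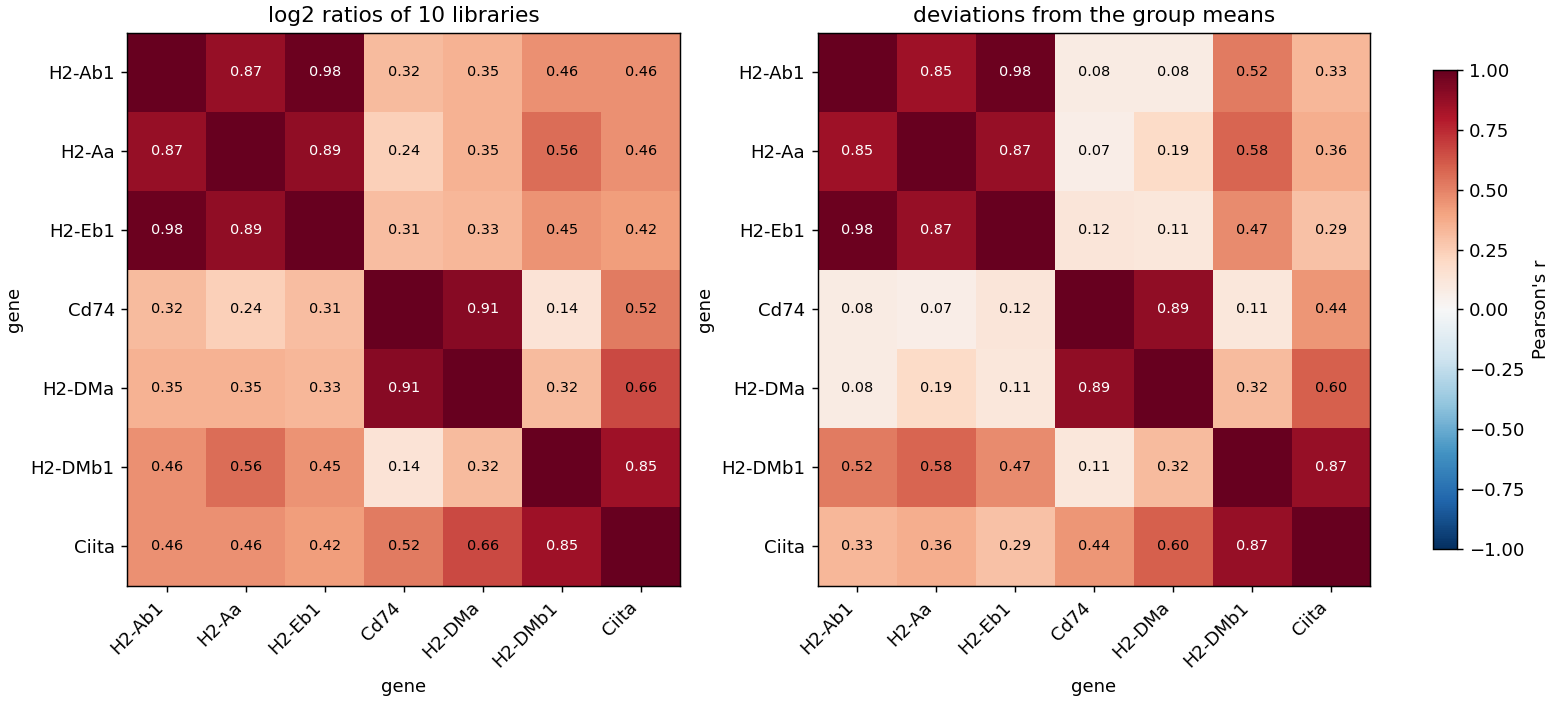
Pearson's r between the 7 genes over the 10 libraries, from the log2 ratios (left panel) and from deviations from the group means (right panel). The surface chains H2-Ab1, H2-Aa and H2-Eb1, the pair Cd74 and H2-DMa, and the pair H2-DMb1 and Ciita reach 0.85 or more in both panels, while Cd74 and the surface chains stay at 0.24 to 0.32 and at 0.07 to 0.12.

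Among genes outside the family, those whose deviations from the group means followed the mean of the 7 most closely over the 10 libraries were Plac8 (r = 0.97), Pld4 (0.95), Trpv2 (0.92), the interferon-induced membrane protein gene Ifitm1 (0.92), Itm2c (0.90) and Ripk3 (0.90), a kinase of necroptosis. These genes were picked for their r, so it is a description. With either unsettled column turned, r stayed between 0.88 and 0.98. The number of genes at r of 0.9 or more differed between members, at 7 for H2-Ab1, 8 for H2-Aa, 0 for H2-Eb1, 11 for H2-DMb1, 15 for Ciita, 69 for Cd74 and 122 for H2-DMa of 16376 genes. The members named next were chosen after the values of their closest genes were seen. Closest to H2-DMa were the vomeronasal receptor gene Vmn1r44 (r = 0.98), Itga10 (0.98) and the gastric lipase gene Lipf (0.98). Ankrd61, Aadacl2fm1 and Coro1a followed for H2-DMa (r = 0.97 each). Psap and Prrt3 were the closest to Cd74 (r = 0.97 each). Gbp3 (r = 0.96), an interferon-induced GTPase, was the closest to H2-Ab1.

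Of the other genes of the class II pathway, the lysosomal proteases Ctss and Lgmn showed the largest differences, and none passed over all genes. Of 9 measured processing genes 7 were positive (52.6% of all genes), and 3 were higher at a limma p under 0.05 (2.97% of all genes). For 2 (Ctss and Lgmn) the Tgfbr2+/- libraries lay wholly above WT (0.726% of all genes). With either unsettled column turned, 0 of the 9 did. Of all genes, 0.256% did with WT replicate 1 turned and 0.317% with Tgfbr2+/- replicate 5 turned. The median difference was 0.13. Ctss, the protease that trims the invariant chain in macrophages and dendritic cells, was at 0.52, 0.44, 0.03, 0.34, 0.37 and 0.29 in Tgfbr2+/- replicates 1 to 6, against -0.27, -0.28, -0.14 and -0.32 in WT replicates 1 to 4. The difference was 0.58 ± 0.09 (exact permutation p = 0.0048, the smallest that 210 splits can give, and limma adjusted p = 0.115). Without Tgfbr2+/- replicate 3, 10 genes passed over all genes, and Ctss was among them at 0.64 (limma adjusted p = 0.00677), while none of the 7 class II genes was. Over 19 alternatives its adjusted p ranged from 0.00677 to 1, and it was 1 with either WT replicate 1 or Tgfbr2+/- replicate 5 turned, where the difference was 0.45 and 0.46.

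Lgmn, the asparaginyl endopeptidase that makes early cuts in the invariant chain and antigens, was at 0.35, 0.08, 0.03, 0.19, 0.18 and 0.25 in Tgfbr2+/- replicates 1 to 6, against -0.07, -0.13, -0.17 and -0.16 in WT replicates 1 to 4. The difference of 0.31 ± 0.06 had p = 0.0095 by exact permutation, and its limma adjusted p was 0.27, with 0.0738 to 1 over the alternatives. Tgfbr2+/- replicate 3 lay above WT for both proteases and below WT for the surface chains, but with WT replicate 1 turned that WT library was at 0.27 for Ctss and 0.07 for Lgmn, above replicate 3. The cathepsins Ctsb (0.18 ± 0.08), Ctsd (0.13 ± 0.08) and Ctsl (-0.07 ± 0.09) had limma adjusted p of 0.9, 0.919 and 0.937.

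The further class II chains and the promoter factors stayed near 0. Of 5 other chains 3 were positive, with a median difference of 0.02 and 0 at a limma p under 0.05. They were H2-DMb2 (0.06 ± 0.05), H2-Oa (0.05 ± 0.04), a chain of the inhibitor of H2-DM, H2-Eb2 (0.02 ± 0.06), H2-Ob (-0.01 ± 0.05) and H2-Ea (-0.06 ± 0.08), the alpha chain that pairs with H2-Eb1. In Tgfbr2+/- replicate 6, where H2-Eb1 was highest, H2-Ea was at its lowest (-0.26). In replicate 3, where H2-Eb1 was lowest, H2-Ea was at 0.10. Of 10 factors that bind or serve the promoter element 5 were positive, with a median of 0.01 and 0 at a limma p under 0.05. The smallest p were those of the acetyltransferase gene Ep300 (-0.09 ± 0.05) and of Rfxank (-0.08 ± 0.05), a subunit of RFX, at limma adjusted p of 0.917 and 0.919.

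**Figure D3:**
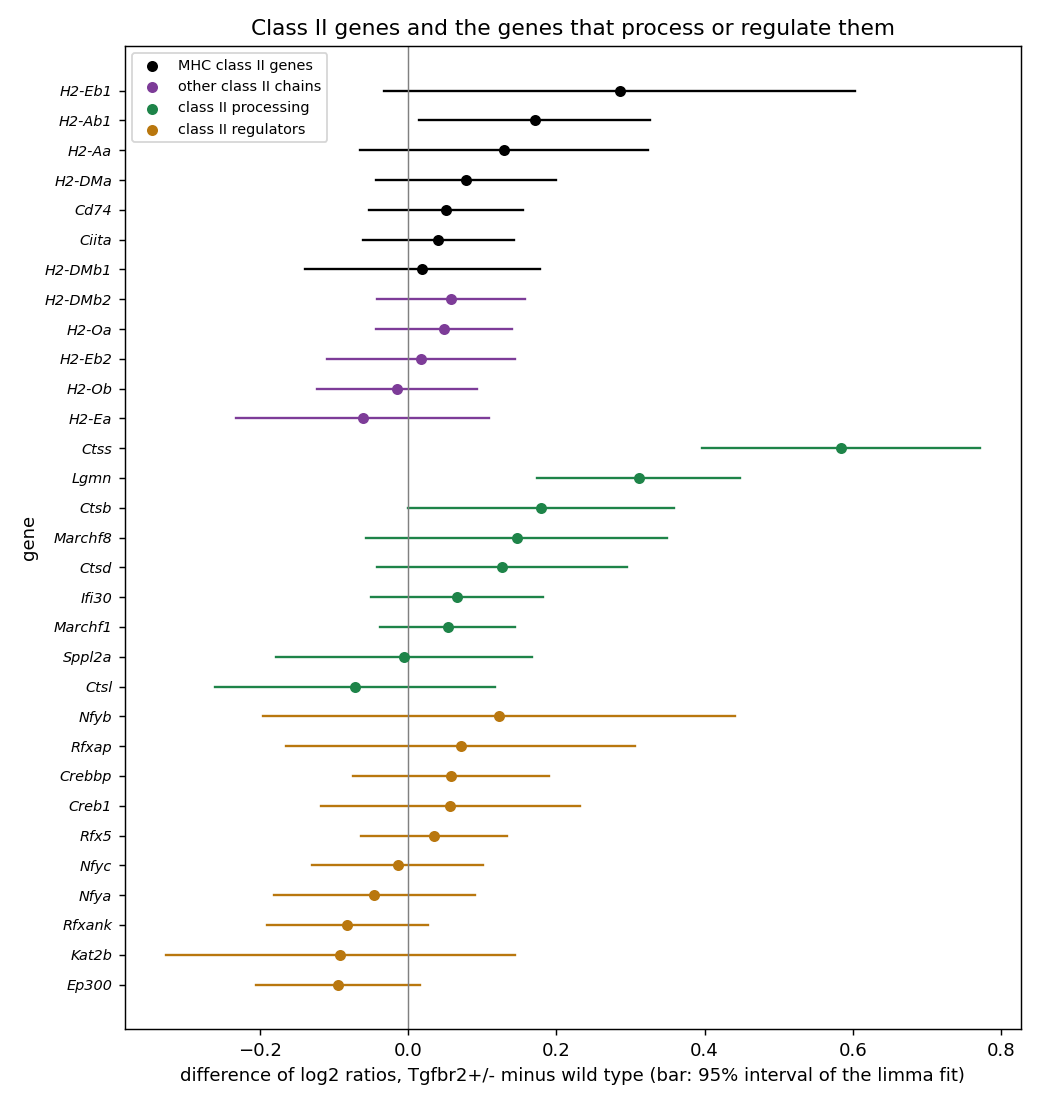
Difference of log2 ratios, Tgfbr2+/- minus WT, with its 95% interval from the limma fit, for the 7 class II genes (black), other class II chains (purple), processing genes (green) and regulators (ochre). Ctss at 0.58 and Lgmn at 0.31 lie clear of 0, the interval of H2-Ab1 starts at 0.01 and those of the other 6 class II genes include 0.

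Genes of class I presentation, which load peptides from the cytosol, showed differences of similar size. Of 15 measured, 14 were positive (52.6% of all genes) with a median of 0.10, and 3 were higher at a limma p under 0.05 (2.97% of all genes) and 0 over all genes. They were the immunoproteasome subunit Psmb10 (0.30 ± 0.09), H2-M3 (0.23 ± 0.10) and the peptide transporter Tap1 (0.16 ± 0.07), and H2-D1, a classical heavy chain, differed by 0.21 ± 0.10 (limma adjusted p = 0.917). H2-M3 and H2-D1 are among the 12 promoters with the motif spacing given above, while Psmb10 and Tap1 are not. The 12 also hold H2-DMb1, H2-Eb2 and H2-DMb2, which differed by 0.02, 0.02 and 0.06. A link between the spacing and the differences was not tested. Turned in sign, WT replicate 1 left 10 of 15 positive and 1 higher at a limma p under 0.05 (54.2% and 1.82% of all genes). Tgfbr2+/- replicate 5 turned left 12 positive and 0 higher at that p (52% and 1.61% of all genes). The interferon gamma axis had 9 of 10 genes positive (52.6% of all genes) and a median of 0.12. In it 1 gene was higher at a limma p under 0.05 (2.97% of all genes). With WT replicate 1 turned 8 were positive with a median of 0.04, and with Tgfbr2+/- replicate 5 turned 7 with a median of 0.09. Of all genes, 54.2% and 52% were positive with these columns turned. It held the chemokine Cxcl10 (0.59 ± 0.26), the inhibitor Socs1 (0.25 ± 0.12), the receptor chain Ifngr1 (0.14 ± 0.07) and the factor Irf1 (0.34 ± 0.19) at limma adjusted p of 0.9 to 0.917. Its mean per library was -0.25 to 0.43 in Tgfbr2+/- and -0.22 to 0.10 in WT, with Tgfbr2+/- replicate 3 lowest and replicate 6 highest, the same libraries as for the surface chains.

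Each member was also set against the means of 6 lists over the 10 libraries, 42 correlations in all, of which 9 passed an adjusted permutation p of 0.05 by Pearson's r, 7 by Spearman's rho and 0 after the group means were taken out. The class I list followed H2-Ab1 most closely, at r = 0.92 (rho = 0.98, permutation p = 0.00025 and 2e-05, adjusted p = 0.0105 and 0.00084, r = 0.93 without the 2 farthest libraries). The interferon gamma axis had r of 0.78 to 0.81 with the surface chains (rho = 0.68 to 0.87, adjusted permutation p = 0.041 to 0.0422 for r and 0.0248 to 0.122 for rho), but 0.51 with H2-Ab1 without the 2 farthest libraries, Tgfbr2+/- replicates 5 and 6. With Cd74 the class I list had r = 0.50 (rho = 0.49) and the interferon gamma axis r = -0.00 (rho = 0.21), with adjusted permutation p of 0.25 and 0.99 for r.

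Markers of cells that carry class II moved with the groups to different degrees. Of 17 listed macrophage markers 15 were measured and 13 were positive (52.6% of all genes). At a limma p under 0.05, 11 were higher (2.97% of all genes). Their mean per library was -0.02 to 0.25 in Tgfbr2+/- and -0.21 to -0.10 in WT, without overlap as deposited. The groups overlapped with either unsettled column turned, since WT replicate 1 was then at 0.14 and Tgfbr2+/- replicate 5 at -0.15. The count of 11 was then 7 and 10, where 1.82% and 1.61% of all genes were higher at that p. As deposited, 8 markers had Tgfbr2+/- libraries wholly above WT (0.726% of all genes). With these columns turned 0 and 3 did, against 0.256% and 0.317% of all genes. Cd5l (0.67 ± 0.10), Folr2 (0.61 ± 0.10), Adgre1 (0.49 ± 0.08), Vsig4 (0.48 ± 0.08), Clec4f (0.43 ± 0.08) and Tyrobp (0.43 ± 0.07) had exact permutation p of 0.0048 each and limma adjusted p of 0.115 to 0.177. Marco (-0.17 ± 0.37) and Cd163 (-0.05 ± 0.22) were negative. Timd4 (0.21 ± 0.17) and Cd68 (0.03 ± 0.04) were positive at limma adjusted p of 0.925 and 0.954. Of 12 dendritic cell markers 9 were positive (52.6% of all genes) with a median of 0.06. Their library means were -0.05 to 0.12 in Tgfbr2+/- and -0.10 to 0.03 in WT. With WT replicate 1 turned 9 were positive with a median of 0.04, and with Tgfbr2+/- replicate 5 turned 9 with a median of 0.05. Clec10a (0.36 ± 0.11), which macrophages also carry, and Siglech (0.32 ± 0.12) had the smallest p, while Itgax was at 0.12 ± 0.09 and Flt3, a defining marker of dendritic cells, at -0.07 ± 0.10.

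Of 8 B cell markers measured 6 were positive (52.6% of all genes) with a median of 0.05. Their library means were -0.02 to 0.14 in Tgfbr2+/- and -0.07 to 0.11 in WT. With WT replicate 1 turned 7 were positive with a median of 0.02, and with Tgfbr2+/- replicate 5 turned 7 with a median of 0.04. Cd22 (0.29 ± 0.13) had the smallest p, and the antigen receptor genes Cd79b (0.13 ± 0.09) and Cd79a (0.01 ± 0.05) had limma adjusted p of 0.92 and 0.989. Of 9 T cell markers 4 were positive with a median of -0.04, and Cd3e differed by 0.12 ± 0.06. Of 7 hepatocyte markers 4 were positive with a median of 0.0030, and Alb differed by -0.02 ± 0.11. Since values are ratios over a pool of the same tissue, they do not say which markers are near absent. The part of these cell markers in the class II values was not tested. The macrophage list had r = 0.79 for H2-Ab1 (rho = 0.71, adjusted permutation p = 0.049 and 0.113) and 0.66 with the group means taken out (adjusted permutation p = 0.283), r = 0.70 for H2-Eb1 (rho = 0.64, adjusted permutation p = 0.0955 and 0.149) and r = 0.07 to 0.59 for the other 5 members. The dendritic cell list had r = 0.82 for H2-Ab1 (rho = 0.78, adjusted permutation p = 0.041 and 0.0563), r = 0.82 for H2-Aa (rho = 0.82, adjusted permutation p = 0.041 and 0.0412), r = 0.71 for Ciita (rho = 0.85, adjusted permutation p = 0.0773 and 0.0269) and r = 0.54 to 0.75 for the other 4. With the group means taken out these 3 were 0.68, 0.79 and 0.69 (adjusted permutation p = 0.147 each).

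**Figure D4:**
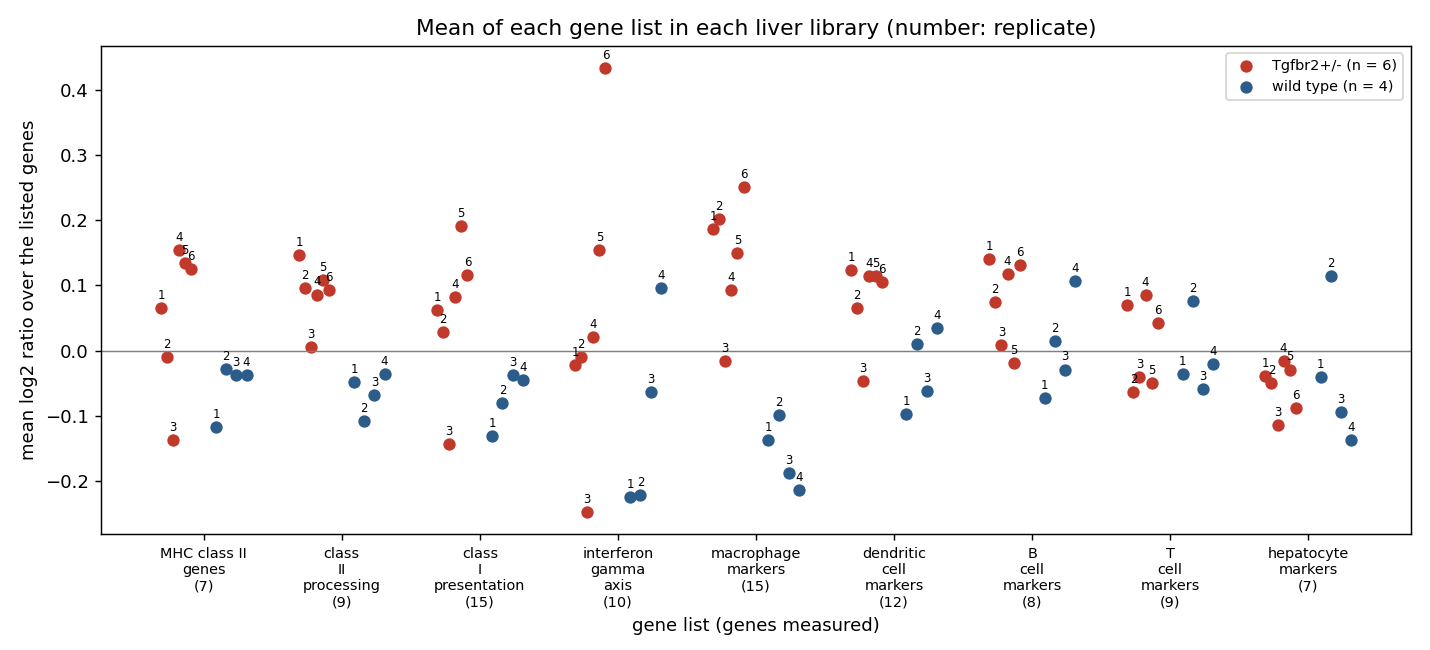
Mean log2 ratio over the pool of each gene list in each library, Tgfbr2+/- left (red) and WT right (blue), numbered by replicate. The macrophage markers do not overlap between the groups as deposited (-0.02 to 0.25 in Tgfbr2+/- and -0.21 to -0.10 in WT) but would with the sign of WT replicate 1 or Tgfbr2+/- replicate 5 turned, whereas the mean of the 7 class II genes is -0.14 to 0.15 in Tgfbr2+/- and -0.12 to -0.03 in WT, with Tgfbr2+/- replicate 3 lowest.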

How the data were processed

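The deposited values are log ratios, read as log10 since 8 of them lie at exactly 2 or -2. The authors centred the columns close to 0 (medians 0.0013 to 0.0047), and per the labels' protocols RNA came from RNeasy columns and was labelled by aminoallyl amplification. Dye swaps were used, per the series design text. Background correction, normalization and how swaps entered a column are not given in the sources used here. Values were multiplied by 3.32 to log2 and averaged per symbol (17726 probes with 1 symbol, 50 with several, 5662 without, in a platform annotation that may be old). Probes were not filtered on brightness, which the table does not hold.

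Groups were compared with limma 3.58.1 in R 4.3.3, two-sided, adjusted over all genes, and single genes also by exact permutation over 210 splits. Correlations used 100000 permutations. The fit was tested on simulated data. Named genes are the 7 members, the 4 of smallest p in each list, fixed markers, Tgfbr2 and the 6 genes closest to the members' mean. Some other genes of the lists, among them the negative macrophage markers Marco and Cd163, are named beside these. The members and lists were chosen with earlier results of these data known. P-values measure the spread between these mice.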

Additional observations from a re-analysis of the deposited data

Results flagged for a closer look

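Of 138 groups tested over 69 named genes, 7 held a library far from the others, close to the 1 in 20 that chance gives. Among the class II genes this was H2-DMb1 in WT replicate 4, at 0.15 where the other WT libraries were at -0.07 to -0.05. The same WT library stood apart for Irf1 (0.28, others -0.41 to -0.38), S100a9 (0.13, others -0.52 to -0.45) and Stab2 (0.10, others at 0.05). WT replicate 2 stood apart for Tyrobp (-0.22, others -0.16 to -0.15). Tgfbr2+/- replicate 3 stood apart for Tap1 (-0.25, others 0.00 to 0.15) and for Crebbp (0.14, others -0.11 to -0.02).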

How the results depend on the processing

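Over 19 alternatives the mean difference of the 7 genes stayed positive, at 0.05 to 0.15, with 0.09 to 0.15 when 1 library was left out. It was 0.05 with WT replicate 1 turned in sign and 0.07 with Tgfbr2+/- replicate 5 turned. H2-Ab1, H2-Aa, H2-Eb1, H2-DMa and Cd74 were positive under each alternative, and 0 members passed an adjusted p of 0.05 under any. H2-Ab1 had a limma p under 0.05 in 7 of the 19, among them both that change only how probes of 1 gene are joined, which leaves a gene with 1 probe as it is, and H2-Aa and H2-Eb1 did in 1 each, without Tgfbr2+/- replicate 3. H2-DMb1 turned negative in 8, at -0.015 with WT replicate 1 turned, -0.041 with Tgfbr2+/- replicate 5 turned, -0.047 without Tgfbr2+/- replicates 4 and 5, -0.026 with scaled columns, and -0.014 to 0.071 when 1 library was left out. Ciita turned negative in 1, at -0.013 with Tgfbr2+/- replicate 5 turned. The cause was not tested. The count of genes past the threshold was 0 to 10 when 1 library was left out, and that of probes 0 to 15, in both cases above 0 only without Tgfbr2+/- replicate 3. With the replicate number as a block (8 libraries) the mean difference was 0.07, H2-Ab1 was at 0.11, H2-Eb1 at 0.15 and H2-DMb1 at -0.020. The limma p of H2-Ab1 was then 0.178, against 0.0352 in the main fit of 10 libraries. With the block 0 genes passed, and the count at an unadjusted p under 0.05 was 1518 in place of 908. Same-numbered libraries correlated at 0.01 to 0.30 in their deviations, and 3 of 4 Tgfbr2+/- libraries correlated best with their own number. Since not every pair was over 0.1, the main fit did not take the numbers as pairs. Whether the numbers mark a batch was not tested. Signal over background is not in the table, so dim probes cannot be told from unchanged ones.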

Other observations

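Costimulatory genes, which a T cell needs beside the class II signal, were positive in 5 of 7 (52.6% of all genes) with a median of 0.11. At a limma p under 0.05, 2 were higher, against 2.97% of all genes. They were Cd86 (0.22 ± 0.08, exact permutation p = 0.0333, limma adjusted p = 0.768) and Cd83 (0.21 ± 0.09, exact permutation p = 0.1, limma adjusted p = 0.9), while the inhibitory ligand genes Cd274 (0.13 ± 0.06) and Pdcd1lg2 (0.05 ± 0.04) had limma adjusted p of 0.917 and 0.931. With Tgfbr2+/- replicate 5 turned in sign 7 of the 7 were positive, and with WT replicate 1 turned 5 were.

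Of 9 endothelial markers 5 were positive with a median of 0.0002. Clec4g (0.27 ± 0.08) had Tgfbr2+/- libraries wholly above WT (0.726% of all genes) and Stab2 (-0.08 ± 0.04) wholly below (0.354%), at limma adjusted p of 0.621 and 0.913. Clec4g overlapped with either unsettled column turned, and Stab2 with WT replicate 1 turned. Of 9 neutrophil markers 7 were positive (52.6% of all genes) with a median of 0.05. With WT replicate 1 turned 6 were, with a median of 0.03, and with Tgfbr2+/- replicate 5 turned 6, with 0.02. As deposited, S100a9 (0.79 ± 0.18) and S100a8 (0.33 ± 0.10) led them, at limma adjusted p of 0.419 and 0.65. Of 7 cholangiocyte and thymic epithelial markers 3 were positive with a median of -0.0013, and 0 had a limma p under 0.05.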
